A study of Homo sapiens with 14 samples.

Results

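The APOBEC3 genes encode cytidine deaminases that turn cytosine into uracil in single-stranded DNA. They were described here through the polymerase signal at their promoters. The family has 7 human members, and a gene was taken as a member when the symbol of its row in the deposited table was APOBEC3A, APOBEC3B, APOBEC3C, APOBEC3D, APOBEC3F, APOBEC3G or APOBEC3H. Of the 7 names, 6 had a row of their own among the 28159 gene windows of the series. APOBEC3A had none. The window at its start carries the symbol APOBEC3A_B, the name of a hybrid that joins APOBEC3A with APOBEC3B, and it is given beside the 6 members without being counted with them. The genes were picked by symbol, within a family selected on measured values of these same libraries. Their differences between Nutlin3a and DMSO and between ChIP and input are therefore a description, and nothing is read from how many members pass a test.

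The measurement was ChIP-seq, chromatin immunoprecipitation followed by sequencing, of RNA polymerase II phosphorylated at Ser5, the form found at promoters and early in transcription, with the antibody 3E8. The cells were wild-type HCT116, a human colorectal carcinoma line, electroporated with a bivalent stapled peptide at 10 µM or with water in its place. The series aims the peptide at the contact of p53 with Mediator. Cells then stood for 3 h in 0.1% DMSO or in 10 µM Nutlin3a, which keeps MDM2 from binding p53, and the peptide cells had 200 nM more peptide in the medium. DMSO with water and Nutlin3a with water had 2 ChIP libraries each, replicates 1 and 2. DMSO with peptide and Nutlin3a with peptide had 1 each, labelled replicate 2. Each of the 4 conditions also had 2 inputs, sheared chromatin that was not immunoprecipitated. ChIP libraries held 1290223 to 2240951 reads in the windows and inputs 161719 to 359276. Nothing in the labels says that replicates came from separate cultures, so the p-values reflect no more than the scatter of these libraries, which may be technical.

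APOBEC3 enzymes restrict retroviruses and mobile elements by mutating their DNA as it is copied, and some of them also mutate the genome of tumours. The genes lie side by side and arose by duplication. APOBEC3A, APOBEC3C and APOBEC3H have a single deaminase domain, while APOBEC3B, APOBEC3D, APOBEC3F and APOBEC3G have a tandem pair. Many members are induced by interferon, several are best known from blood cells, and p53 is known to raise some of them and lower APOBEC3B.

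All 7 windows lay on chromosome 22 of hg38 and were 1000 bp long, within 141 kb. In chromosome order, they ran from 38957222 to 38958221 for APOBEC3A_B, from 38982047 to 38983046 for APOBEC3B and from 39013957 to 39014956 for APOBEC3C. APOBEC3D followed at 39020827 to 39021826, APOBEC3F at 39040564 to 39041563, APOBEC3G at 39076705 to 39077704 and APOBEC3H at 39096924 to 39097923. The windows of APOBEC3B, APOBEC3C, APOBEC3D, APOBEC3F and APOBEC3G began 300 bp upstream of the RefSeq gene start. The APOBEC3H window began 320 bp upstream, and the APOBEC3A_B window 387 bp upstream of the start of APOBEC3A, so each holds a promoter and the first part of the gene. None overlapped any other window of the table. The closest neighbours, APOBEC3C and APOBEC3D, were 5870 bp apart, and the other gaps ran from 18737 to 35141 bp. The members are paralogs of similar sequence, and the treatment of reads that match several places is not stated in the labels.

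The promoter of APOBEC3H is shown because that window had the largest Nutlin3a to DMSO fold change of the 7. The sequence is the RefSeq entry for GRCh38.p14, chr22:39096994-39097293, plus strand, from 250 bases before to 50 bases after the gene start, and all of it lies inside the window counted. Of the 7 members, 1 had a promoter in the reference table used here.
APOBEC3H promoter: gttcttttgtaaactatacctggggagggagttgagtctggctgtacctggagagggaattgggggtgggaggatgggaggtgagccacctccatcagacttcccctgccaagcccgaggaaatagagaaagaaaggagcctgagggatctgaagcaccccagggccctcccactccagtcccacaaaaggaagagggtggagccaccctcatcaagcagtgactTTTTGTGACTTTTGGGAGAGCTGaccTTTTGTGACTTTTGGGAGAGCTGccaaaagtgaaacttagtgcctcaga
The capitals mark the longest direct repeat, 23 bases that occur at position −25 and again at +2 from the gene start with 3 bases between the copies, so that the start itself falls between them. A direct repeat of at least that length is found in 1.31% of 35116 promoters of 300 bases. The stretch had 53.3% G and C and 1 CpG, against a median of 14 CpG per promoter. On both strands it held 1 CCAAT, on the minus strand at position −192, which 34.6% of promoters hold. It held no TATAAA (in 11.5% of promoters), no GGGCGG (45.0%), no TTTGAA (15.2%) and no core of the interferon-stimulated response element (3.57%). The p53 half-site consensus (6.63% of promoters) and the NF-kB consensus (5.91%) had no exact match in it either. A match or its absence describes only these letters in this stretch.

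Levels at the family's promoters were low to middling, and most were no higher in ChIP than in input. Values are CPM, window counts scaled by library total and TMM factor, and all windows have the same length. These levels, and the orders of members drawn from them, are not corrected for input, which differed among the windows. Over the 6 ChIP libraries the mean was 35.5 CPM for APOBEC3F, 30.1 CPM for APOBEC3D, 30.1 CPM for APOBEC3C, 26.7 CPM for APOBEC3G, 19.5 CPM for APOBEC3H, 10.4 CPM for APOBEC3B and 8.66 CPM for APOBEC3A_B. These means stood at the 39.1 percentile (APOBEC3A_B) to the 65.2 percentile (APOBEC3F) of all windows. CDKN1A, the p53 target that encodes p21, had 234.8 CPM. Counts behind the members were small, from 15 to 101 reads per ChIP library and from 1 to 32 per input.

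Input levels differed among the paralogs too. Across the 8 inputs APOBEC3F had a mean of 55.3 ± 22.5 CPM (SD), APOBEC3G 52.5 ± 25.1 CPM and APOBEC3H 43.8 ± 24.3 CPM. APOBEC3D had 40.6 ± 12.7 CPM, APOBEC3B 32.5 ± 18.2 CPM, APOBEC3C 29.7 ± 12.6 CPM and APOBEC3A_B 13.7 ± 15.7 CPM. The mean ChIP level was 1.01 times the mean input level for APOBEC3C, the highest ratio of the 7. The ratio was 0.743 for APOBEC3D, 0.641 for APOBEC3F, 0.633 for APOBEC3A_B, 0.508 for APOBEC3G, 0.446 for APOBEC3H and 0.321 for APOBEC3B. Across the tested windows with input reads the median ratio was 0.711, with the middle 50% from 0.415 to 1.25, and CDKN1A had 4.37. A list of 17 genes of other tissues, such as the liver gene ALB, had a median ratio of 0.338. Each library is scaled to its own window counts, so a ratio ranks windows and is no absolute enrichment.

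Over the 3 DMSO libraries, the one with peptide included, the order of the members was APOBEC3F (30.5 ± 2.30 CPM, SD), APOBEC3C (23.7 ± 4.57), APOBEC3G (21.7 ± 7.92), APOBEC3D (19.3 ± 6.87), APOBEC3H (11.9 ± 5.29) and APOBEC3B (9.42 ± 1.68). Only APOBEC3F and APOBEC3C had ranges that did not overlap, and every other neighbouring pair overlapped. Without the peptide library, APOBEC3D (18.9 CPM) stood above APOBEC3G (17.5 CPM) and APOBEC3B (9.38 CPM) above APOBEC3H (8.98 CPM). Over the 3 Nutlin3a libraries, again with the peptide one, the order was APOBEC3D (41.0 ± 4.50 CPM), APOBEC3F (40.4 ± 6.67), APOBEC3C (36.5 ± 5.31), APOBEC3G (31.7 ± 7.25), APOBEC3H (27.2 ± 1.69) and APOBEC3B (11.5 ± 2.10). There the only neighbours with separate ranges were APOBEC3H and APOBEC3B.

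**Figure D1:**
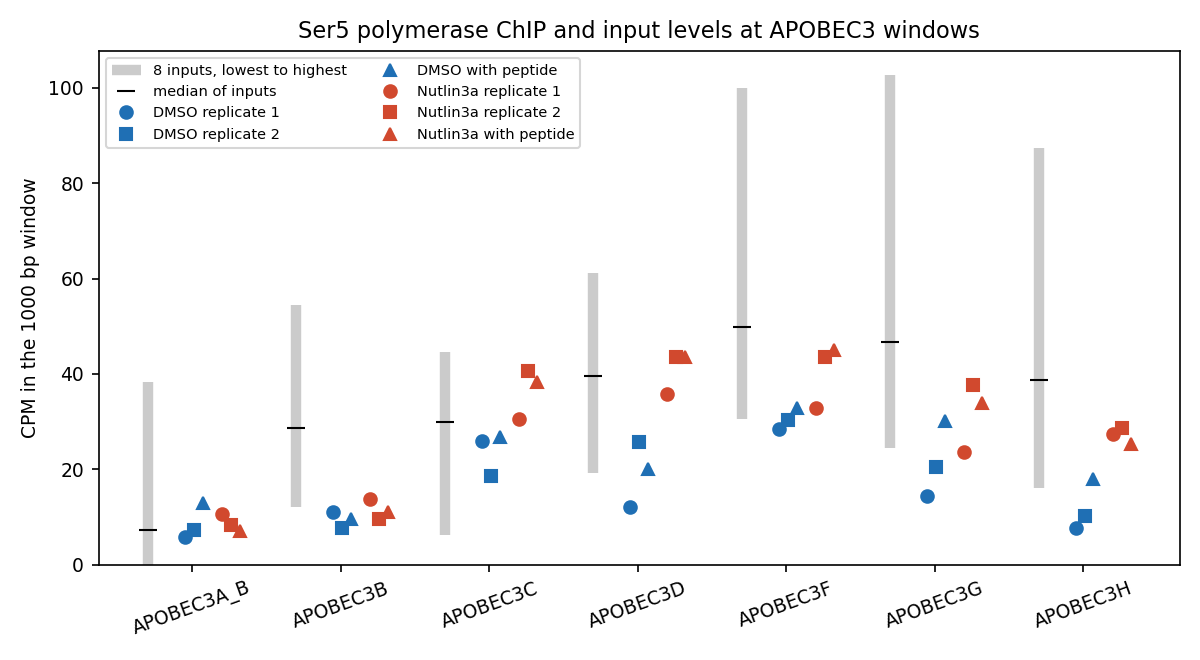
CPM in each ChIP library (points) at the 7 windows, with the lowest, the median and the highest of the 8 inputs as a grey bar and a black tick; blue is DMSO, red is Nutlin3a, and circles, squares and triangles are replicate 1, replicate 2 and the peptide libraries. At APOBEC3C, APOBEC3D and APOBEC3H the 3 red points lie above the 3 blue ones, and at APOBEC3B all 6 lie between 7.71 and 13.7 CPM, below the input median.

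The test of ChIP against input asked which promoters hold more Ser5 polymerase over input than the typical window of the table does. APOBEC3B, a nuclear deaminase tied to mutation in tumours, was lower in ChIP by a log2 fold change of −1.31 ± 0.43 (SE, 6 ChIP libraries and 8 inputs, adjusted p = 0.0173 edgeR quasi-likelihood test, adjusted by Benjamini-Hochberg over 21504 windows). APOBEC3H was lower as well, by −0.85 ± 0.33 (adjusted p = 0.0379 by the same edgeR test). APOBEC3G did not pass (−0.71 ± 0.30, adjusted p = 0.0624), nor did APOBEC3F (−0.35), APOBEC3D (−0.26), APOBEC3A_B (−0.31) or APOBEC3C (0.24). So 2 of the 6 members were lower and 0 higher, where 17.3% of tested windows were lower and 23.3% higher. At an unadjusted p under 0.05 there were 3 lower and 0 higher members by edgeR, and DESeq2 and limma-voom each called 3 lower (APOBEC3B, APOBEC3G and APOBEC3H) and 0 higher. The direction of calls over all windows depended on the scaling, with 5018 higher and 3714 lower with TMM, 3821 and 4983 with DESeq2's size factors and 3726 and 5196 with total counts. The median of all windows moved from −0.10 to −0.25 and −0.30 with it, and APOBEC3B, at −1.31, was at −1.46 and −1.52. The APOBEC3H call ended when any of DMSO replicate 1, DMSO replicate 2, Nutlin3a replicate 1 or Nutlin3a replicate 2 was left out (adjusted p = 0.0856, 0.0527, 0.0643 and 0.0660), and without a filter on low counts (0.116). Over the 9 alternatives run, the adjusted p of APOBEC3B ran from 0.00526 to 0.0428 and that of APOBEC3H from 0.0126 to 0.116.

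Nutlin3a against DMSO asked which promoters gain or lose polymerase once p53 is stabilised. All 6 members had more signal with Nutlin3a in each of the 3 pairs of libraries, replicate 1, replicate 2 and the peptide pair, which 14.6% of tested windows also did. Summed over the 6 members, the level was 99.5, 113 and 137 CPM in DMSO replicate 1, DMSO replicate 2 and DMSO with peptide. In the matching Nutlin3a libraries it was 164, 204 and 197 CPM. In the 8 inputs this sum ran from 189.7 to 302 CPM. The 3 Nutlin3a libraries lay above the 3 DMSO libraries, without overlap, at APOBEC3C, APOBEC3D and APOBEC3H, 3 of 6 members, against 4.76% of tested windows. Nothing is read from either count, since the family was chosen with this contrast known. Bulk chromatin cannot tell more cells with polymerase from more polymerase per cell.

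APOBEC3H, a single-domain enzyme whose human variants differ in stability, had the largest difference. Its level was 7.69 CPM in DMSO replicate 1, 10.3 CPM in DMSO replicate 2 and 17.9 CPM in DMSO with peptide. With Nutlin3a it was 27.4, 28.7 and 25.3 CPM in the same order. The Nutlin3a libraries were close to each other, and the DMSO library with peptide was the highest of the DMSO group. Every Nutlin3a ChIP value was below the mean of 43.8 CPM over all 8 inputs. The ratio was 3.57 in replicate 1 (95% Clopper-Pearson interval from the counts 1.93 to 6.89, covering counting error only), 2.79 in replicate 2 (1.63 to 4.97) and 1.42 in the peptide pair (0.905 to 2.26). In the fit without peptide the log2 fold change was 1.64 ± 0.40 (SE, n = 2 per group), or 3.12-fold. That fit used ChIP counts alone and is not corrected for input. Input at the APOBEC3H window was also higher with Nutlin3a, without overlap and with the peptide inputs included. It ran from 16.04 to 37.01 CPM in the DMSO inputs and from 40.49 to 87.45 CPM in the Nutlin3a inputs. These levels rest on 5 to 14 reads per input. The part of input in the ChIP difference was not tested.

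APOBEC3D, a tandem-domain member, was next. Its DMSO levels were 12.0, 25.7 and 20.1 CPM, and its Nutlin3a levels 35.8, 43.6 and 43.6 CPM, each in the order replicate 1, replicate 2 and peptide. Among the DMSO libraries replicate 1 was the lowest and replicate 2 the highest, while the Nutlin3a libraries were close. The ratio was 2.98 (1.80 to 5.05), 1.70 (1.17 to 2.49) and 2.17 (1.47 to 3.27) in the 3 pairs, and the interval lay above 1 in each. The fitted log2 fold change was 1.08 ± 0.36, and it was 0.63 without DMSO replicate 1 and 1.73 without DMSO replicate 2.

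At APOBEC3C, a single-domain enzyme, the Nutlin3a levels also cleared those of DMSO. They were 26.0, 18.5 and 26.8 CPM in DMSO and 30.5, 40.6 and 38.2 CPM in Nutlin3a. The ratio was 1.17 (0.760 to 1.80) in replicate 1, 2.20 (1.45 to 3.39) in replicate 2 and 1.43 (0.991 to 2.08) in the peptide pair, so that replicate 2 gave most of the difference. The log2 fold change was 0.68 ± 0.33.

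The members best known for blocking HIV that lacks Vif, APOBEC3G and APOBEC3F, had DMSO and Nutlin3a groups that overlapped. APOBEC3G had 14.4, 20.5 and 30.1 CPM in DMSO and 23.6, 37.7 and 33.8 CPM in Nutlin3a, with a log2 fold change of 0.82 ± 0.36 without peptide. APOBEC3F had 28.4, 30.3 and 32.9 CPM against 32.8, 43.6 and 44.9 CPM, with 0.39 ± 0.30. For both, the DMSO library with peptide was higher than Nutlin3a replicate 1, which is what made the groups overlap.

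APOBEC3B was the member with the smallest difference. Its DMSO levels were 11.1, 7.71 and 9.49 CPM and its Nutlin3a levels 13.7, 9.56 and 11.1 CPM, from 15 to 25 reads each. The pair ratios were 1.24, 1.24 and 1.17, the widest of their counting intervals ran from 0.575 to 2.69, and the log2 fold change was 0.30 ± 0.53. APOBEC3A_B, at the start of the myeloid deaminase APOBEC3A, had 5.77, 7.19 and 12.8 CPM in DMSO and 10.7, 8.37 and 7.11 CPM in Nutlin3a. Its ratio was 1.85 and 1.16 without peptide and 0.554 with it, and each interval held 1 (the last from 0.274 to 1.10). Neither gene's fit tells a 2-fold change from none at this depth: the 95% interval of the fold was 0.563 to 2.68 for APOBEC3B and 0.616 to 3.45 for APOBEC3A_B.

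**Figure D2:**
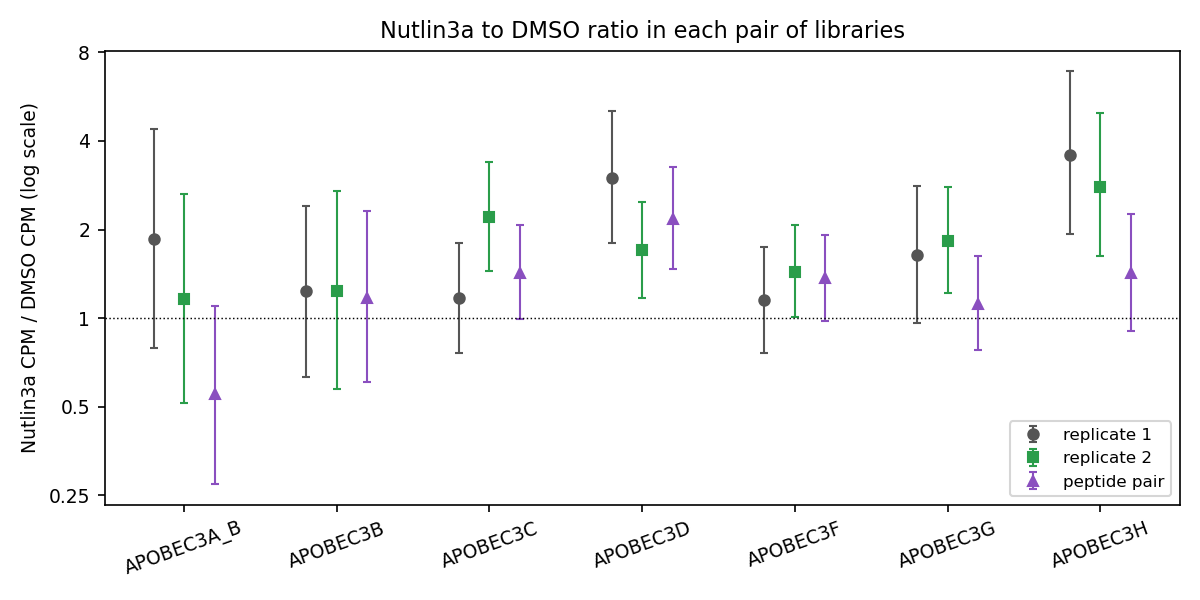
Nutlin3a to DMSO ratio of CPM (log scale) at the 7 windows in replicate 1, replicate 2 and the peptide pair, with 95% Clopper-Pearson intervals that cover counting error only. All 3 intervals lie above 1 at APOBEC3D, and at APOBEC3H the peptide pair (1.42) lies below the pairs without peptide (3.57 and 2.79).

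With edgeR, and p adjusted by Benjamini-Hochberg across the 25901 windows tested, 0 of the 6 members passed in Nutlin3a against DMSO without peptide (adjusted p = 0.982 for each), where 0.00772% of windows were higher and 0% lower. At an unadjusted p under 0.05, APOBEC3D, APOBEC3G and APOBEC3H were higher by edgeR and limma-voom, and APOBEC3D and APOBEC3H by DESeq2, against 1.27% of windows by edgeR. DESeq2 and limma-voom also called 0 members after adjustment. The members' median log2 fold change was 0.75, against 0.04 for all windows. By pair the members' median log2 ratio was 0.48 in replicate 1, 0.79 in replicate 2 and 0.46 with peptide, against 0.06, 0.01 and 0.00 for all windows. With the library pairs as a block 1 of 6 passed edgeR's test (APOBEC3H, where 0.151% of windows were higher). With all 3 pairs as a block, the peptide pair included, 2 did (APOBEC3D and APOBEC3H, where 0.205% of windows were higher). That alternative was chosen after seeing the data. Scaled by the authors' constants, the median window was at 0.53, APOBEC3H at 2.14 and APOBEC3B at 0.83.

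Background windows also differed between the pairs. The silent tissue genes (15 of 17 tested) had a median log2 ratio of 0.84 in replicate 1, 0.26 in replicate 2 and 0.00 with peptide. Their summed level was 149 to 161 CPM in the DMSO libraries, 168 to 171 CPM in Nutlin3a and 256 to 424 CPM in the inputs. Markers of blood cells, which express several APOBEC3 genes, had medians of 0.77, −0.18 and 0.16 over 18 of 19 windows. Their sum was 104 to 118 CPM in DMSO, 106 to 187 CPM in Nutlin3a and 275 to 412 CPM in the inputs, with none of the 19 at 0 in every ChIP library. Mesenchymal markers had medians of 1.25, 0.09 and −0.36 (9 of 10 tested), with sums of 45.2 to 83.2 CPM in DMSO, 76.5 to 104 CPM in Nutlin3a and 153 to 311 CPM in the inputs. The part of these in the members' values was not tested. Without Nutlin3a replicate 1 the fitted log2 fold change was 1.67 for APOBEC3H, 1.22 for APOBEC3D and 1.11 for APOBEC3G. It was 0.86 for APOBEC3C, 0.57 for APOBEC3F and 0.02 for APOBEC3B. Colon epithelial markers fitted the label of the cells only in part: KRT19, KRT8 and EPCAM had ChIP at 5.89, 4.15 and 2.10 times input, while the median of the 15 markers was 0.455.

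The genes around the cluster give the regional background. Within 500 kb on either side, 22 other coding genes were tested, 12 on the left and 10 on the right. Their median log2 fold change was −0.11, with a range from −0.37 (RPL3) to 0.72 (CACNA1I, a calcium channel gene with 6.80 CPM in DMSO). Of the 22, 1 was higher with Nutlin3a in each of the 3 pairs, 0 had groups that did not overlap, and 0 passed edgeR's test. The nearest coding genes, the Polycomb genes CBX6 on the left and CBX7 on the right, were at −0.16 and −0.12. Their own ChIP to input ratios were 0.761 and 0.468, within the range of the members. Over all 22 genes the ratio ran from 0.308 to 5.25, and 10 had a ratio of at least 1. CACNA1I had 0.322.

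**Figure D3:**
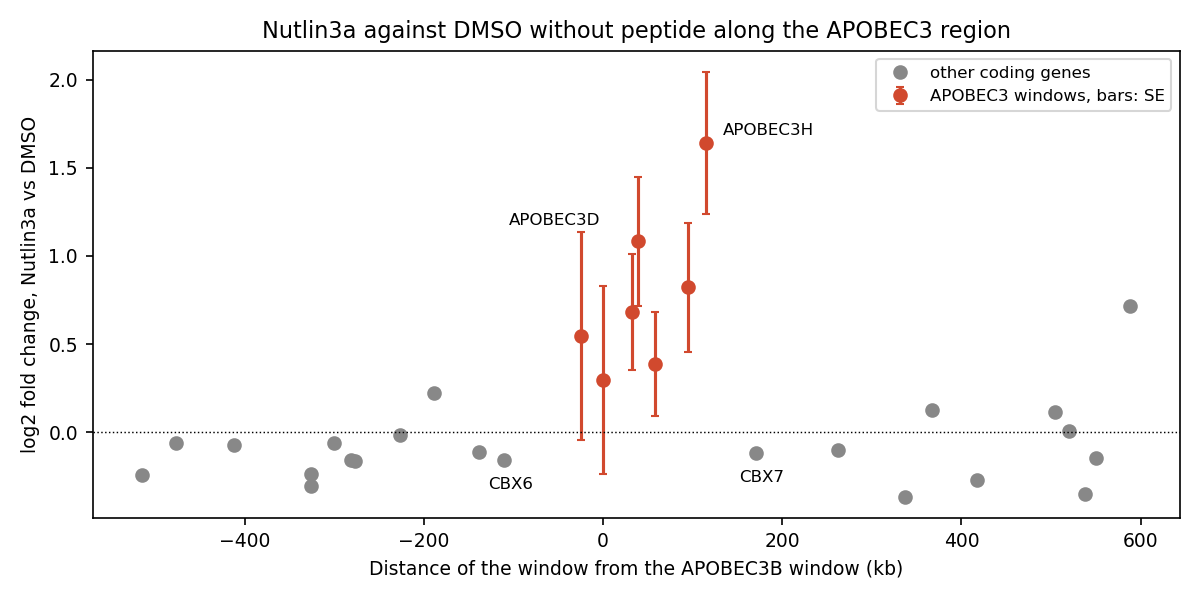
Log2 fold change of Nutlin3a against DMSO without peptide by distance from the APOBEC3B window in kb, for the 7 windows of the cluster (red, bars are standard errors, n = 2 per group) and 22 other coding genes (grey). The red points lie between 0.30 and 1.64, and the grey points between −0.37 and 0.72.

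Other lists of related genes were read in the same contrast. Among family relatives elsewhere in the genome, APOBEC2 was at a log2 fold change of 0.77 ± 0.57 and APOBEC1, an editor of apolipoprotein B mRNA, at 0.35 ± 0.76, and neither passed. Of 11 other nucleoside and RNA deaminases, 6 were positive and 0 passed (median 0.05), with ADAR, the main editor of adenosine in RNA, at 0.44 ± 0.27, ADAT1 at −0.25 and GDA at −0.27. Genes that excise uracil and repair the abasic site, the step that follows a deaminase, had 2 of 12 positive and 0 passing, with a median of −0.19 that turned to 0.33 with the authors' constants. The uracil glycosylase UNG was at −0.51 ± 0.28 and HMCES, which shields abasic sites, at −0.45.

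Of 17 other restriction factors, 9 were positive, 0 passed and the median was 0.01. SLFN11, which blocks translation of viral RNA, was at 1.66 ± 0.75 from 3.29 CPM, MX1 at 0.43 and TREX1 at −0.36. Interferon-stimulated genes had 16 of 21 tested members positive, 0 passing and a median of 0.60, with pair medians of 0.68, 0.31 and 0.18. Among them IFI6 was at 1.29 ± 0.57, DDX58, which encodes the RNA sensor RIG-I, at 0.77 and RSAD2 at 1.43. NF-kB genes had 6 of 14 positive, 0 passing and a median of −0.15 (0.30 with the authors' constants), with TRAF1 at −0.56, RELA at −0.28 and CXCL8 at 2.30 ± 1.96. Of 30 p53 targets, 26 were positive, 1 passed as higher (TP53INP1, adjusted p = 0.038 by edgeR) and the median was 0.71, beside 0.75 for the members. GDF15 was at 1.33, FAS at 1.47 and MDM2 at 0.83. These targets had a median ChIP to input ratio of 1.56, and the highest among the members was 1.01. In the same fit the mesenchymal markers, with a median ratio of 0.333, had a median log2 fold change of 0.87. It was 0.49 for the silent tissue genes (ratio 0.338), 0.31 for blood cell markers (0.404) and 0.27 for colon epithelial markers (0.455). Of 24 cell cycle genes that the DREAM repressor binds, 1 was positive, 0 passed and the median was −0.34 (0.19 with the authors' constants), with MCM4 at −0.55, MCM5 at −0.61 and MCM7 at −0.44.

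The windows whose pattern was most like that of a member were sought among 2472 tested windows. Of these, 2256 had input reads and ChIP at least 2 times input, and the rest had no input reads. The measure was the Pearson correlation of log2 CPM over the 6 ChIP libraries, which share depth and treatment. For APOBEC3C the windows most alike were KLLN (r = 0.937), PLK3 (0.931) and FDXR (0.916). For APOBEC3D they were MIR3190 (r = 0.968), IRAK1 (0.904) and CDKN1A (0.899). With 6 points such values describe these libraries only.

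The peptide comparisons asked whether blocking the contact of p53 with Mediator alters polymerase at these promoters. Under DMSO all 6 members had a higher fitted level with the peptide, and 47.6% of all tested windows did. The members' log2 fold changes ran from 0.01 (APOBEC3B) to 0.99 ± 0.49 (APOBEC3H, 95% interval −0.04 to 2.02). APOBEC3G was at 0.79 ± 0.43 (−0.12 to 1.70), and the other members were at 0.27 or less. Under Nutlin3a the members lay between −0.15 (APOBEC3H) and 0.23 (APOBEC3F). In both comparisons 0 of 6 members passed edgeR's test over 25901 windows, as 0% of all windows did in either direction, and 0 had an unadjusted p under 0.05 by edgeR, DESeq2 or limma-voom. Replicate 2 holds every peptide ChIP library. Within it APOBEC3H was 1.74 times as high with the peptide under DMSO (counting interval 0.964 to 3.21) and 0.884 times as high under Nutlin3a (0.591 to 1.33). APOBEC3D had 0.782 (0.495 to 1.22) and 0.999 (0.730 to 1.37) in the same ratios. The sign under DMSO turned negative for APOBEC3B, APOBEC3D and APOBEC3F with the authors' constants, under which the median window went from −0.02 to −0.25.

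The response to Nutlin3a with the peptide, minus that without it, was negative at APOBEC3H and APOBEC3G and near 0 at the others. APOBEC3H had −1.14 ± 0.67 (95% interval −2.55 to 0.27), which comes from a higher level in DMSO with peptide (17.9 CPM) and a similar one in Nutlin3a. APOBEC3G had −0.66 ± 0.60 (−1.93 to 0.62) and APOBEC3C −0.17 (−1.35 to 1.01). APOBEC3D was at 0.03 (−1.29 to 1.36), APOBEC3F at 0.06 ± 0.50 and APOBEC3B at −0.07 (−1.99 to 1.85). APOBEC3A_B, whose pair with peptide went the other way, had −1.39 (−3.47 to 0.69). By edgeR's test 0 of the 6 members passed (adjusted p = 1.00 for each), as 0% of windows did in either direction, and 0 had an unadjusted p under 0.05 by edgeR, DESeq2 or limma-voom. The intervals run beyond a doubling or halving of the response at every member, so neither a loss nor its absence can be read from them, and the fit takes each lone peptide library to scatter as the replicated groups do.

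**Figure D4:**
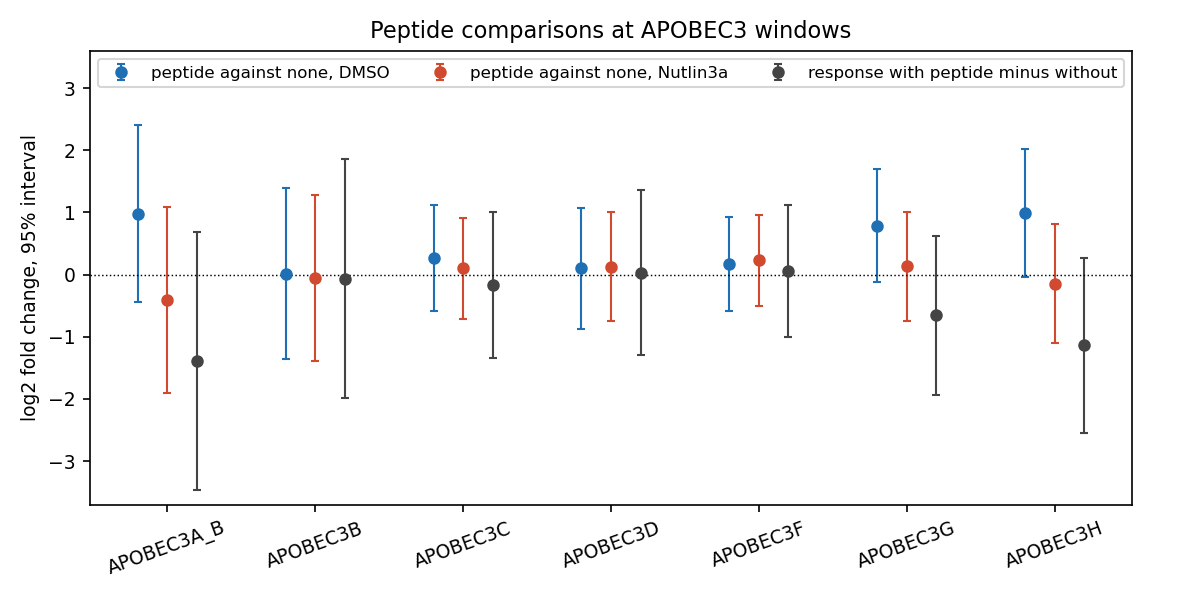
Log2 fold changes with 95% intervals from the edgeR fit at the 7 windows for peptide against none under DMSO (blue), the same under Nutlin3a (red) and the Nutlin3a response with peptide minus that without it (dark grey). Every interval holds 0, and the dark grey point of APOBEC3H is at −1.14.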

How the data were processed

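The deposited table held raw read counts per library in 28159 windows at transcription start sites, on hg38 per the submitters' processing notes, and, per the file headers, the authors' scaled signal of each ChIP library, which equals the counts times 1 constant per library (0.595 to 1.82). The aligner, the filters and the source of the constants are not given in the sources used here. No column was left unused. The signal served only as an alternative scaling.

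ChIP counts were fitted with edgeR 4.0.16 in R 4.3.3 (quasi-likelihood test, TMM factors 0.952 to 1.02, filterByExpr with a minimum count of 10, 25901 windows, 4 group means, 2 residual degrees of freedom). ChIP against input used all 14 libraries and 8 group means (21504 windows). P-values were adjusted by Benjamini-Hochberg over all tested windows, with a threshold of 0.05. Pair log2 ratios used a prior count of 2. DESeq2 1.42.0 and limma 3.58.1 (voom) were alternatives. Named genes were all members, up to 3 per list with the smallest p, CBX6 and CBX7 as nearest coding genes, CDKN1A and MDM2, and the 3 windows most like each of the 2 members with the highest ChIP to input ratio; RPL3 and CACNA1I were named after their values were seen. A few genes it picks, and 1 list, are not reported here. Members and lists were chosen with earlier results of these data known. Window positions are 1-based. Total counts per library set the precision, with 15 to 101 reads per member and ChIP library.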

Additional observations from a re-analysis of the deposited data

How the results depend on the processing

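In Nutlin3a against DMSO without peptide every member kept a positive sign in each alternative run. The log2 fold change ran from 0.02 to 0.83 for APOBEC3B and from 1.45 to 2.14 for APOBEC3H. The count of members past the threshold stayed at 0 except with the replicate block. With the replicate block 1 member passed, APOBEC3H (1.64, adjusted p = 0.00814 by edgeR, against 0.151% of windows called higher). The labels give the libraries of a pair a shared number and do not say what they share. Deviations of the DMSO and Nutlin3a libraries with the same number correlated at 0.454 over 25901 windows. Libraries with the same number thus varied together in part, and there are 2 pairs. A fit with all 3 pairs as a block averages the peptide pair in with the others, and it was chosen after seeing the data. In it 2 passed, APOBEC3D (1.11, adjusted p = 0.000771) and APOBEC3H (1.20, adjusted p = 0.00794 by edgeR), against 0.205% of windows. Windows called in that comparison numbered 2, and 39 with the block, 60 with 3 pairs, 8 with DESeq2, 4 with limma-voom, 6 with total counts, 0 with the authors' constants, with a mean count of at least 50, with ChIP at least 2 times input or with the 4 libraries without peptide alone, and 0 to 88 with a library left out (0 without DMSO replicate 2, 88 without DMSO replicate 1). In the difference between responses 0 windows were called, 5 with the block and 0 to 34 with a library left out (34 without DMSO replicate 1). For peptide under DMSO it was 0, 4 with the block and 0 to 53 (53 without DMSO replicate 2). For peptide under Nutlin3a it was 0, 55 with the authors' constants, 1 with the block and 2 to 119 (119 without Nutlin3a replicate 2). ChIP against input had 8732, and 3255 with the mean count of 50. No member has ChIP at 2 times input, so that filter gave no member value.

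The members called in ChIP against input numbered 2, and 1 without a filter, 1 with any of the 4 libraries left out (APOBEC3B in each of these). With a mean count of at least 50, which leaves APOBEC3C, APOBEC3D and APOBEC3F, it was 1, a different member: APOBEC3F passed there at −0.91 (adjusted p = 0.0135 by edgeR), against −0.35 and no call otherwise. There APOBEC3C turned to −0.33 with the mean count of 50 and APOBEC3A_B to 0.17 with limma-voom. The members' median with peptide, 0.46, was 0.85 with the authors' constants.

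Signs of values near 0 turned as follows. For the difference between responses, APOBEC3D was at −0.091 with limma-voom, −0.036 with total counts, −0.12 with the mean count of 50 and −0.053 with the authors' constants, and APOBEC3F at −0.016 with total counts and −0.10 with the mean count of 50. With a library left out APOBEC3B ran from −0.35 to 0.20, APOBEC3C from −0.44 to 0.047, APOBEC3D from −0.61 to 0.48 and APOBEC3F from −0.13 to 0.27. For peptide under DMSO, the authors' constants gave −0.23 for APOBEC3B, −0.10 for APOBEC3D and −0.060 for APOBEC3F, the replicate block −0.17 for APOBEC3D, and leaving out a library −0.35 to 0.75 for APOBEC3D and −0.21 to 0.30 for APOBEC3B. For peptide under Nutlin3a, the authors' constants gave −0.16, −0.15, −0.032 and −0.088 for APOBEC3C, APOBEC3D, APOBEC3F and APOBEC3G, and the replicate block 0.22, −0.16 and −0.12 for APOBEC3B, APOBEC3D and APOBEC3G. With a library left out the ranges were −0.31 to 0.21 for APOBEC3B, −0.094 to 0.31 for APOBEC3C, −0.0084 to 0.27 for APOBEC3D and −0.16 to 0.50 for APOBEC3G. The cause was not tested.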

Other observations

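APOBEC3B-AS1, a noncoding antisense gene of the cluster, has a window at 38963111 to 38964110 on chromosome 22, which begins 28448 bp to the left of the span that RefSeq gives the gene in GRCh38.p14, 38991559 to 38998220, and overlaps the end of APOBEC3A. Its levels were 6.25, 5.14 and 8.37 CPM in DMSO replicate 1, DMSO replicate 2 and DMSO with peptide, and 7.62, 7.77 and 3.11 CPM in the matching Nutlin3a libraries. The window does not overlap that span, so these values were not used for the gene.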
